A study of Mus musculus with 4 samples.

Results

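Cytokine receptor chains are the proteins through which a T cell senses the cytokines around it, and 10 of their genes were followed here: Il2ra, Il2rb, Il2rg, Il7r, Il21r, Il12rb2, Ifngr1, Il6st, Il27ra and Il10ra. They were taken as a list by name, out of 47643 genes in the deposited count table, and all 10 were among the 9608 genes tested, which had 10 or more counts over all libraries. Il10ra and Il27ra reached that minimum only with their counts in Il10-EGFP+ T cells. The CD4+ T cells came from spleens of Tg4 Nr4a3-Tocky mice with an Il10-EGFP reporter. All of these mice carried a transgenic T cell receptor for a peptide of myelin basic protein, a fluorescent Timer protein driven by Nr4a3, a gene switched on by T cell receptor signalling, and the Tiger reporter, which makes EGFP where Il10 is transcribed. Mice of both sexes, with no age given in the sources used here, had received 4 mg/kg of the altered peptide [4Y]-MBP in PBS under the skin 24 h before, so that both populations came from immunized mice and no untreated library belongs to the comparison. Timer+ cells were sorted into Il10-EGFP+ and Il10-EGFP− T cells, with 2 libraries of each from biological replicate mice. The methods speak of a replicate pair, and whether both populations of a pair came from the same mouse is not stated. Because the sort was made on one transcribed cytokine gene among T cells of a single transgenic specificity, the populations are models of that response only.

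Most cytokine receptors of T cells work as complexes, in which one chain binds a particular cytokine and another is shared between several cytokines. The common gamma chain (Il2rg) is shared by the receptors for IL-2, IL-4, IL-7, IL-9, IL-15 and IL-21, and gp130 (Il6st) by those for IL-6 and IL-27. Binding brings together Janus kinases attached to the chains, and these phosphorylate STAT factors that carry the signal to the nucleus. Most such receptors need both signalling chains, whereas for IL-2 the chain encoded by Il2ra raises the affinity of a receptor that can signal without it.

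The libraries held 644679 to 730330 counts each, and a single count was worth between 1.36 and 1.59 CPM (counts scaled to a common library size, with TMM factors). Reads came from the 3′ end of each transcript, where a longer transcript gives no more reads, so values were not divided by transcript length. T cell markers were present in every library, with Cd4 at 153 and 149 counts in Il10-EGFP− against 162 and 209 in Il10-EGFP+ T cells, and the summed level of 8 T cell markers was 1754 to 1847 CPM against 2422 to 2461 CPM, with 1 of them, Trac, called higher (an edgeR adjusted p under 0.05). The 10 B cell markers summed to 136 and 182 CPM in Il10-EGFP− and to 542 and 587 CPM in Il10-EGFP+ T cells. Of the 8 tested, 5 were called higher (Igkc, Ighm, Iglc2, H2-Aa and Cd22), and all 8 had log2 fold changes above 0. Igkc, for example, had 6 and 18 against 81 and 116 counts. The 2 not tested were Cd79a, at 2, 0, 0 and 0 counts, and Cd79b, at 1, 1, 4 and 2. The 10 myeloid markers summed to 111 and 139 CPM against 385 and 201 CPM. Of the 9 tested, 2 were called higher (Lyz2 and S100a8), 8 had log2 fold changes above 0, and the median was 1.06. Adgre1, the 1 not tested, was at 0 in every library. Over all genes, 2.35% were called higher and 1.74% lower. Flt3, Xcr1 and Siglech, which define dendritic cells, and Ncr1 of NK cells were at 0 throughout, and the summed 7 CD8 or NK markers overlapped between the populations. Of 6 genes of naive T cells, Ccr7 (388 ± 39.7 against 217 ± 40.0 CPM, SD, n = 2 each) and Tcf7 (360 ± 11.5 against 237 ± 33.9 CPM) were called lower and Klf2 (56.9 ± 4.06 against 121 ± 40.0 CPM) higher, and the 6 summed to 934 and 963 against 832 and 688 CPM. Of 5 Treg genes, 4 were tested and 0 were called by edgeR, DESeq2 or limma, with 0 at an unadjusted p under 0.05, and their summed levels overlapped. The part of B cell, myeloid or naive T cell transcripts in the values of the receptor chains was not tested. In bulk libraries, fewer cells that transcribe a gene and less RNA per cell cannot be told apart.

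For 7 of the 10 chains a promoter was matched in RefSeq (assembly GRCm38.p6). The 250 bases before the RefSeq transcription start of the 4 chains that passed the test are shown, because the transcripts of these genes differed. Capitals mark TTCNNNGAA, the core of the element that STAT factors bind. The motif is its own reverse complement, so that 1 search covers both strands.
Il7r, chr15:9529877-9530126, minus strand: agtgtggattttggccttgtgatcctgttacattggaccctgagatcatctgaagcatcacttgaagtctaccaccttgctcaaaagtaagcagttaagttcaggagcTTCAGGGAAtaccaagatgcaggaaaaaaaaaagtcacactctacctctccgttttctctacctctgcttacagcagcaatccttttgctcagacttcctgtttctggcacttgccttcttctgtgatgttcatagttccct
Il12rb2, chr6:67376189-67376438, minus strand: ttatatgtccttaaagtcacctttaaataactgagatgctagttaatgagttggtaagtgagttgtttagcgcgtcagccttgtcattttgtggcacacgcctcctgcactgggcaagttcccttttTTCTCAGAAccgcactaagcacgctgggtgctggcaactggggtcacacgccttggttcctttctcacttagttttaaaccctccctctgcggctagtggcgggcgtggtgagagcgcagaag
Ifngr1, chr10:19591699-19591948, plus strand: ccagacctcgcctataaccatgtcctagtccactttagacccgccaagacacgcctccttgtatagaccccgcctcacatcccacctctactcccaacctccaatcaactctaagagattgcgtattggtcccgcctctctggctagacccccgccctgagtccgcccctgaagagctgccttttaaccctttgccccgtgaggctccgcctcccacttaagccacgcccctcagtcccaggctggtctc
Il2rg, chrX:101268256-101268505, minus strand: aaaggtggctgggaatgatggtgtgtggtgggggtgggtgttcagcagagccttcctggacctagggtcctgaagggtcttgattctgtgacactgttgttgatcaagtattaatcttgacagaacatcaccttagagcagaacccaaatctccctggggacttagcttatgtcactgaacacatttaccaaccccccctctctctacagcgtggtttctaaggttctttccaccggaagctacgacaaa
The Il7r window held the match TTCAGGGAA, which began at position -142 from the RefSeq start. The Il12rb2 window held TTCTCAGAA, which began at position -123. GENCODE puts the start of Il7r at 9530176 on the minus strand. By that annotation the whole Il7r window lies inside the gene, so its match is before the RefSeq start only. No match was found in the windows of Ifngr1 and Il2rg, nor in those of Il2ra, Il21r and Il6st. The motif was thus in 2 of 7 receptor windows, and it was in 2306 of 32851 windows (7.02%) over all RefSeq promoters of the same length. A match describes letters in a window and is not evidence of a bound factor.

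The question of the comparison was which cytokines each population had the transcripts to sense. Of the 10 chains, Il7r, Il12rb2 and Ifngr1 were higher and Il2rg was lower in Il10-EGFP+ than in Il10-EGFP− T cells, by the quasi-likelihood test of edgeR, with Benjamini-Hochberg adjustment over all tested genes. The other 6 were not called. Among all genes, 2.35% were called higher and 1.74% lower, against 3 and 1 of the 10 chains. The libraries of the populations did not overlap for 8 chains, 6 with higher and 2 with lower values in Il10-EGFP+ T cells, where 22.3% of all genes did not overlap with higher values and 22.3% with lower ones. The median log2 fold change of the 10 chains was 0.58, with 80% above 0, and that of all genes was 0.00 to the nearest hundredth, with 50% above 0. The study names Il12rb2 and Ifngr1 in its text on these libraries and draws Il7r with them in a heatmap, so the direction of these 3 chains is no independent evidence.

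**Figure D1:**
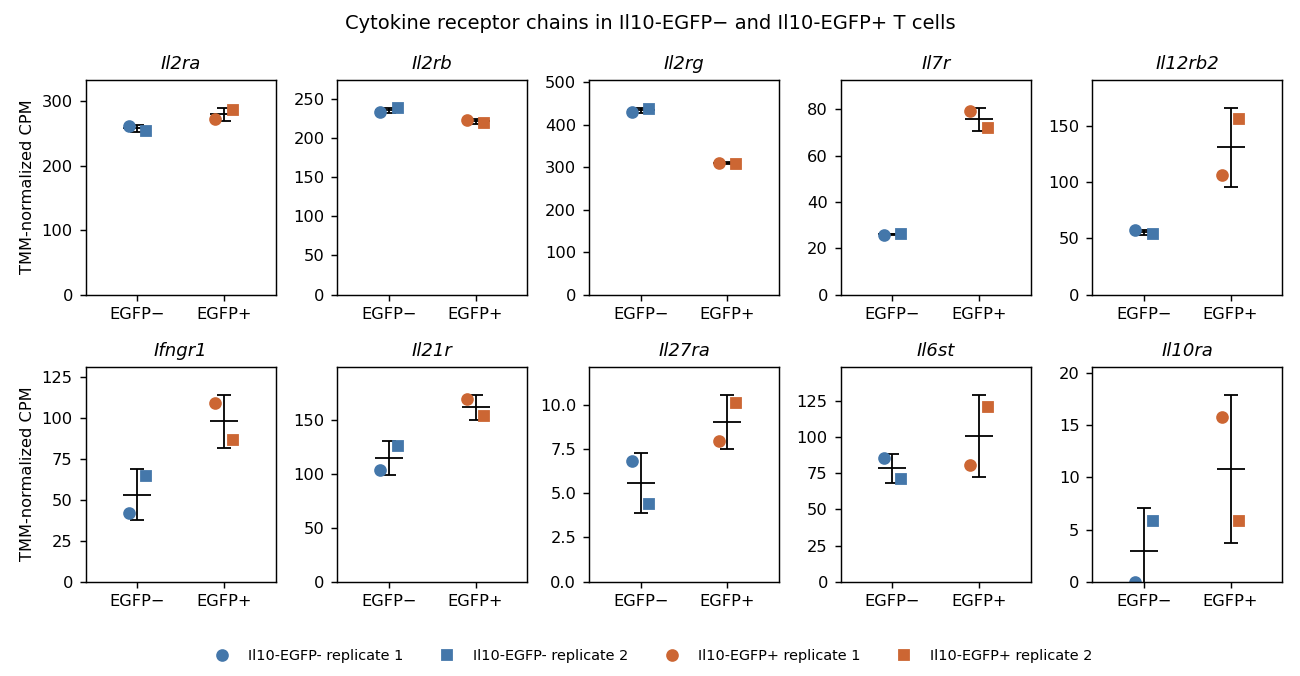
TMM-normalized CPM (vertical axes, each from 0) of the 10 receptor chains in Il10-EGFP− (blue) and Il10-EGFP+ (orange) T cells, with replicate 1 as circles, replicate 2 as squares, and horizontal lines with bars for the mean ± SD of 2 libraries (the bar of Il10ra is cut at 0). The libraries of the populations are apart for every chain but Il6st and Il10ra, and the gap is widest relative to the spread for Il7r and Il2rg.

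Among the receptors of the common gamma chain, Il7r had the largest called difference. Il7r encodes CD127, the chain that binds IL-7 and, with Crlf2, TSLP, and in T cells it is known for survival and memory. Its gene lies on chr15:9505788-9530176 (GRCm38, minus strand). Counts were 19 and 18 in Il10-EGFP− against 50 and 50 in Il10-EGFP+ T cells, or 25.8 and 26.3 CPM against 79.2 and 72.1 CPM. Both Il10-EGFP+ libraries were far above both Il10-EGFP− libraries, and replicates lay close together. The level went from 26.0 ± 0.335 to 75.7 ± 5.02 CPM (SD, n = 2 each), a 2.89-fold difference with a log2 fold change of 1.53 (SE 0.32, 95% interval 0.90 to 2.17, edgeR adjusted p = 0.00114). Il7r was the only chain of the 10 called with each library left out in turn, with log2 fold changes of 1.46 to 1.60. The last 600 bases of its transcript share up to 16 sequences of 50 bases with another gene, Gm3550, which had 4 and 11 against 7 and 7 counts, so some of its reads may have been assigned elsewhere.

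Il2rg, the common gamma chain itself (chrX:101264378-101268255, minus strand), was the one chain called lower. It had 316 and 300 counts in Il10-EGFP− against 196 and 213 in Il10-EGFP+ T cells, or 429 and 438 CPM against 311 and 307 CPM. Both Il10-EGFP− libraries were higher, and replicates differed by far less than the gap between the populations. Its level went from 433 ± 6.22 to 309 ± 2.32 CPM (SD, n = 2 each), 1.40-fold lower, with a log2 fold change of -0.49 (SE 0.15, 95% interval -0.78 to -0.19, edgeR adjusted p = 0.0427). The deposited rlog values, which are on a log2 scale, were 8.12 and 8.13 against 7.80 and 7.79, a difference of -0.33 (limma adjusted p = 0.0310). The call sat close to the threshold. With any 1 of the 4 libraries left out the log2 fold change stayed between -0.51 and -0.47 but the edgeR adjusted p was 0.122 to 0.200, and with DESeq2 it was 0.222. A same-strand gene, Gm20489, overlaps 728 exon bases of Il2rg and had 0 counts in every library.

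The chains that bind IL-2 were abundant in both populations and were not called. Il2ra encodes CD25, which gives the IL-2 receptor its high affinity and rises on activated T cells. It had 193 and 174 counts in Il10-EGFP− against 172 and 199 in Il10-EGFP+ T cells, or 262 and 254 against 273 and 287 CPM. On the CPM scale the populations were just apart, with means of 258 ± 5.72 and 280 ± 10.3 CPM (SD, n = 2 each). Its log2 fold change was 0.12 (SE 0.16, 95% interval -0.20 to 0.44, edgeR adjusted p = 0.815), so a rise of more than 1.35-fold lies outside the interval. Il2rb encodes CD122, the signalling chain shared by IL-2 and IL-15. It had 172 and 163 against 141 and 152 counts, or 233 and 238 against 223 and 219 CPM. The Il10-EGFP+ libraries were slightly the lower ones, with a log2 fold change of -0.09 (SE 0.17, 95% interval -0.42 to 0.24, edgeR adjusted p = 0.879).

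Il21r, which binds IL-21, a cytokine that activated CD4+ T cells make themselves, lay between these cases. It had 76 and 86 counts in Il10-EGFP− against 107 and 106 in Il10-EGFP+ T cells, or 103 and 125 against 170 and 153 CPM. Both Il10-EGFP+ libraries were above both others. The level was 114 ± 15.8 against 161 ± 11.8 CPM (SD, n = 2 each), with a log2 fold change of 0.50 (SE 0.20, 95% interval 0.10 to 0.90). The unadjusted p in edgeR was 0.0157, and after adjustment over all genes Il21r did not pass (edgeR adjusted p = 0.170).

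The counts of the gamma chain partners were also set against Il2rg within each library, a comparison chosen after the values were seen and given as a description. Il7r was 0.0601 and 0.0600 of Il2rg in Il10-EGFP− libraries and 0.255 and 0.235 in Il10-EGFP+ libraries. Il2ra stood at 0.611 and 0.580 of Il2rg against 0.878 and 0.934, and Il2rb at 0.544 and 0.543 against 0.719 and 0.714. For Il21r the ratios were 0.241 and 0.287 against 0.546 and 0.498. All 4 partner chains had a higher ratio to the shared chain in both Il10-EGFP+ libraries, and they share Il2rg as the denominator, so these ratios are not independent of each other or of its lower level. In every library Il2rg nevertheless had more counts than any partner.

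**Figure D2:**
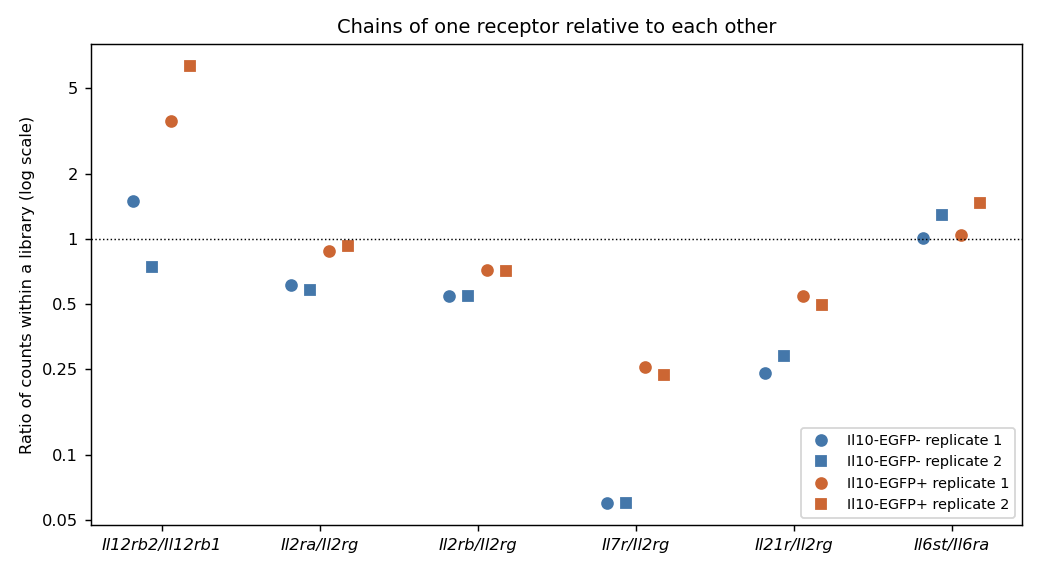
Counts of one receptor chain divided by those of another in the same library (vertical log axis), for 6 pairs of chains, in Il10-EGFP− (blue) and Il10-EGFP+ (orange) libraries, with a dotted line at equal counts. Il7r to Il2rg goes from about 0.06 to 0.255 and 0.235, and Il12rb2 to Il12rb1 from 1.50 and 0.740 to 3.53 and 6.35, while Il6st to Il6ra overlaps between the populations.

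For IL-12 the pair of chains went in opposite directions, with only Il12rb2 called. Il12rb2 encodes the chain that carries the STAT4 signal of IL-12 and is known as a feature of Th1 cells (chr6:67291318-67376188, minus strand). It had 42 and 37 counts in Il10-EGFP− against 67 and 108 in Il10-EGFP+ T cells, or 57.0 and 54.0 against 106 and 156 CPM. Il10-EGFP− libraries were close to each other, and both Il10-EGFP+ libraries lay above them, replicate 2 far more than replicate 1. The level went from 55.5 ± 2.14 to 131 ± 35.1 CPM (SD, n = 2 each), 2.36-fold higher, with a log2 fold change of 1.24 (SE 0.24, 95% interval 0.75 to 1.73, edgeR adjusted p = 0.000549). Leaving out Il10-EGFP+ replicate 2 lowered the log2 fold change to 0.93, and the call was lost (edgeR adjusted p = 0.0912). Il12rb2 shares 1519 exon bases on the opposite strand with Serbp1, which had 2777 and 2831 against 2011 and 2230 counts. The strand option of the counting was not given in the sources used here, so reads of Serbp1 and Il12rb2 over those bases could not be separated. Serbp1 itself had fewer counts in both Il10-EGFP+ libraries.

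Il12rb1 encodes the chain shared by the IL-12 and IL-23 receptors. It had 28 and 50 counts in Il10-EGFP− against 19 and 17 in Il10-EGFP+ T cells, or 38.0 and 73.0 against 30.1 and 24.5 CPM. The Il10-EGFP+ libraries were both lower, but the Il10-EGFP− libraries spread widely. The log2 fold change was -1.01 (SE 0.36, 95% interval -1.73 to -0.30) and did not pass (edgeR adjusted p = 0.0983). Its value turned on the Il10-EGFP− libraries, with -1.42 and an edgeR adjusted p of 0.0162 without replicate 1 and -0.48 and 0.737 without replicate 2. As a description, the ratio of Il12rb2 to Il12rb1 counts was 1.50 and 0.740 in Il10-EGFP− against 3.53 and 6.35 in Il10-EGFP+ libraries. In both Il10-EGFP+ libraries Il12rb1 was the scarcer of the pair, at 19 and 17 counts.

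Ifngr1, the chain that binds IFNγ (chr10:19591949-19610229, plus strand), was higher in Il10-EGFP+ T cells. It had 31 and 44 counts in Il10-EGFP− against 69 and 60 in Il10-EGFP+ T cells, or 42.1 and 64.2 against 109 and 86.6 CPM. The populations were apart, with the gap between the nearest libraries about as large as that between replicates. Its level was 53.1 ± 15.6 against 97.9 ± 16.1 CPM (SD, n = 2 each), 1.84-fold higher, with a log2 fold change of 0.88 (SE 0.26, 95% interval 0.35 to 1.41, edgeR adjusted p = 0.0406). The call was lost without Il10-EGFP− replicate 1 (log2 fold change 0.60, edgeR adjusted p = 0.402) and without Il10-EGFP+ replicate 1 (0.71, edgeR adjusted p = 0.293). The end of its transcript shares 12 sequences of 50 bases with several other genes, among them Nasp, at 306 to 415 counts.

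Ifngr2 encodes the other IFNγ receptor chain, which is needed for the signal. It had 0 and 3 counts in Il10-EGFP− against 0 and 0 in Il10-EGFP+ T cells, too few to be tested. A count of 0 allows up to 4.75 CPM in Il10-EGFP+ replicate 1, 4.33 CPM in Il10-EGFP+ replicate 2 and 4.07 CPM in Il10-EGFP− replicate 1, as 3 counts of each library's TMM-scaled total, for counting error only. So the binding chain was measured at 86.6 CPM or more in Il10-EGFP+ T cells and the second chain was at or below this limit. Transcripts of Ifngr2 were not detectable at this depth in 3 of the 4 libraries, which does not show that they were absent.

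The chains around gp130 were not called. Il6st, gp130 itself, had 63 and 49 counts in Il10-EGFP− against 51 and 84 in Il10-EGFP+ T cells, or 85.5 and 71.5 against 80.8 and 121 CPM. These ranges overlapped, and the higher mean of Il10-EGFP+ T cells came from replicate 2. The log2 fold change was 0.37 (SE 0.24, 95% interval -0.11 to 0.85, edgeR adjusted p = 0.508), and it was 0.04 without that library. Il6ra, which binds IL-6 and joins gp130, had 62 and 38 against 49 and 57 counts, with a log2 fold change of 0.19 (SE 0.26, edgeR adjusted p = 0.817). Il27ra, which with gp130 forms the receptor for IL-27, had 5 and 3 counts against 5 and 7. Its ratio of counts between the populations was 1.61 with an exact interval of 0.605 to 4.54 for counting error only, so a doubling could not be told from no change at this depth. The edgeR adjusted p was 0.787.

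Il10ra encodes the chain that binds IL-10, the cytokine whose reporter defined the sort. It had 0 and 4 counts in Il10-EGFP− against 10 and 4 in Il10-EGFP+ T cells. The populations overlapped, since replicate 2 had 4 counts in both. The ratio of summed counts, 14 against 4, was 3.76 with an exact interval of 1.18 to 15.7 for counting error only, while the edgeR adjusted p was 0.362. Leaving out a library moved its log2 fold change between 0.84 and 5.90. Il10rb, the partner chain, had 19 and 22 against 15 and 22 counts, with a log2 fold change of -0.05 (SE 0.40, edgeR adjusted p = 0.983), and exceeded Il10ra in every library.

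**Figure D3:**
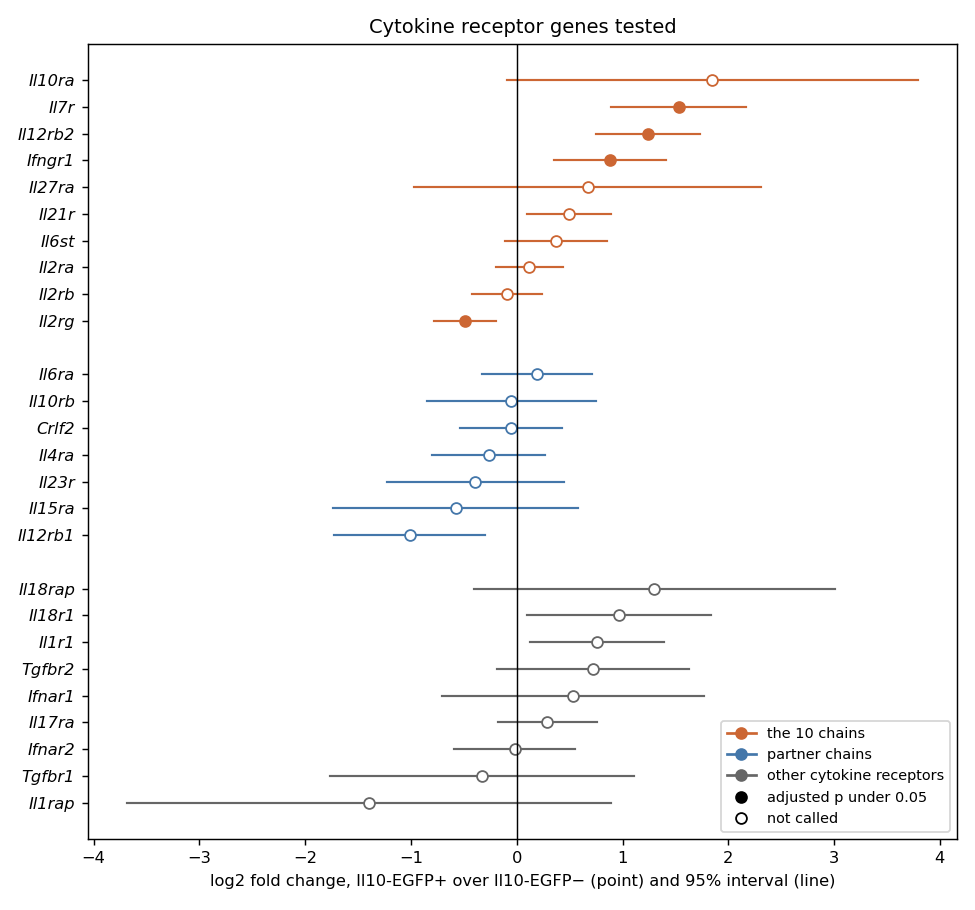
Log2 fold change of Il10-EGFP+ over Il10-EGFP− T cells (point) with its 95% interval (line) for the 10 receptor chains (orange), the 7 tested partner chains (blue) and 9 tested other cytokine receptors (grey), filled where edgeR's adjusted p was under 0.05. Filled points are Il7r, Il12rb2 and Ifngr1 to the right of 0 and Il2rg to the left, and Il10ra has the longest interval among the 10 chains.

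The order of the levels was similar at the top in both populations. In Il10-EGFP− T cells it was Il2rg at 433 CPM, Il2ra at 258, Il2rb at 236, Il21r at 114, Il6st at 78.5, Il12rb2 at 55.5, Ifngr1 at 53.1, Il7r at 26.0, Il27ra at 5.58 and Il10ra at 2.92 CPM. Neighbours in that order had overlapping libraries for Il12rb2 and Ifngr1 and for Il27ra and Il10ra. In Il10-EGFP+ T cells Il2rg at 309, Il2ra at 280 and Il2rb at 221 CPM again led, and the next 4 chains, Il21r at 161, Il12rb2 at 131, Il6st at 101 and Ifngr1 at 97.9 CPM, overlapped from neighbour to neighbour. Il7r followed at 75.7 CPM, apart from Ifngr1 above and Il10ra below, and Il10ra and Il27ra overlapped at 10.8 and 9.01 CPM. Summed over the 10 chains, the level was 1245 and 1281 CPM in Il10-EGFP− against 1375 and 1418 CPM in Il10-EGFP+ libraries. Efficiency of capture can differ between genes, so an order of levels is less firm than a difference within one gene.

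A receptor was counted as complete in a population where each chain had more than 3 counts in both libraries, over 13 cytokines. By this measure 11 were complete in Il10-EGFP+ and 9 in Il10-EGFP− T cells. Receptors for IL-2, IL-4, IL-6, IL-7, IL-12, IL-15, IL-21, IL-23 and TSLP were complete in both. IL-9, with Il9r at 0, 0, 1 and 0 counts, and IFNγ, with Ifngr2 as above, were complete in neither. IL-27 and IL-10 made the difference of 2, through the 3 counts of Il27ra in Il10-EGFP− replicate 2 and the 0 counts of Il10ra in Il10-EGFP− replicate 1. Neither chain passed the test, so the populations are not shown to differ in these receptors. With a minimum of 10 counts the order turned, to 8 complete receptors in Il10-EGFP+ and 9 in Il10-EGFP− T cells, because IL-10, IL-27 and, with 7 counts of Il23r in replicate 1, IL-23 dropped out of the former. These are counts of transcripts, and chains at the cell surface were not measured in the libraries.

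**Figure D4:**
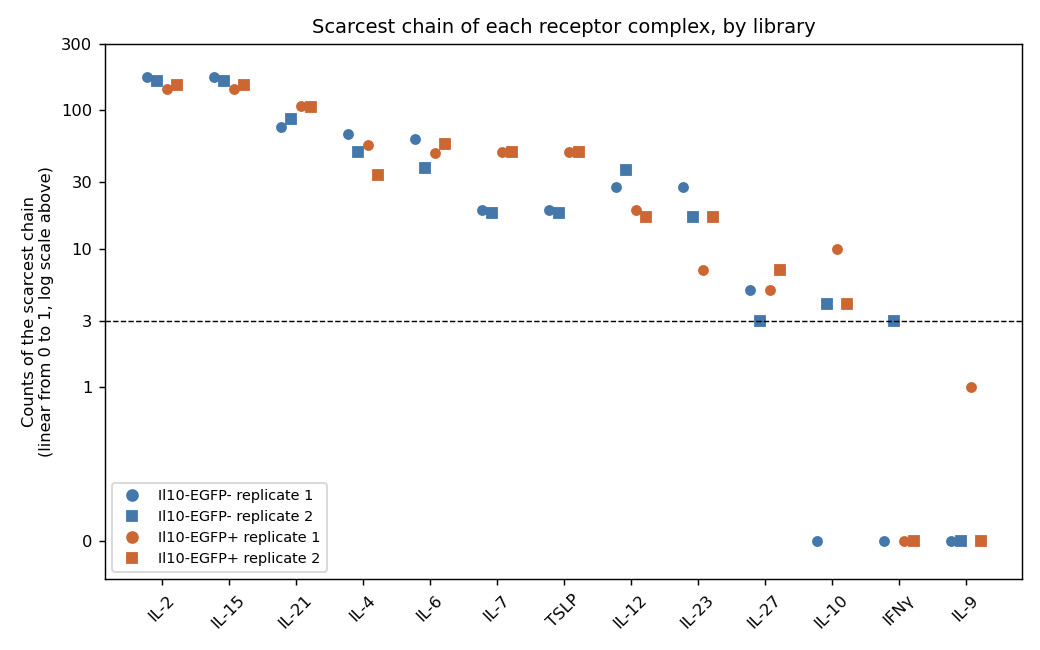
Counts of the scarcest chain of each receptor (vertical axis, linear from 0 to 1 and logarithmic above) for 13 cytokines, in each of the 4 libraries, with a dashed line at 3 counts. The scarcest chain lies above the line in every library for 9 receptors, IL-27 and IL-10 each have an Il10-EGFP− library on or below it, and IFNγ and IL-9 lie on or below it throughout.

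Which chain was the scarcest differed by receptor. For IL-2 and IL-15 it was Il2rb, at 163 to 172 counts in Il10-EGFP− and 141 to 152 in Il10-EGFP+ libraries. For IL-7 and TSLP it was Il7r, at 18 to 19 against 50 counts, the receptors whose scarcest chain passed the test with a higher level. Crlf2, the TSLP partner, had 83 and 53 against 70 and 51 counts (log2 fold change -0.06, edgeR adjusted p = 0.957). In Il10-EGFP+ replicate 2 it was level with Il7r, at 51 against 50 counts, and in the other libraries it was more abundant. For IL-4 it was Il4ra, at 67 and 50 against 56 and 34 counts, which overlapped (log2 fold change -0.27, edgeR adjusted p = 0.722). Il23r, which joins Il12rb1 to bind IL-23, ranged from 17 to 35 counts in Il10-EGFP− and from 7 to 30 in Il10-EGFP+ libraries, a wide spread between replicates (log2 fold change -0.39, edgeR adjusted p = 0.746). Il15ra, which presents IL-15, had 11 and 13 against 4 and 11 counts (log2 fold change -0.58, edgeR adjusted p = 0.722).

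None of the 7 tested partner chains was called by edgeR, 1 had an unadjusted p under 0.05 (Il12rb1), and neither DESeq2 nor limma on the rlog values called any. Their median log2 fold change was -0.27 with 1 of 7 above 0. A list of 17 further cytokine receptors, for interferon α/β, IL-1, IL-17, IL-18, TGFβ and others, had 9 tested members and 0 called by edgeR, DESeq2 or limma, with 2 at an unadjusted edgeR p under 0.05. Their median log2 fold change was 0.53, with 6 of 9 above 0. In summed level the partner chains were 414 and 359 CPM in Il10-EGFP− against 350 and 320 CPM in Il10-EGFP+ libraries, and the other receptors 240 and 264 against 350 and 309 CPM.

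Of the cytokines themselves, Il10 separated the populations, as the sort on its reporter fixes. It had 0 and 0 counts in Il10-EGFP− against 29 and 41 in Il10-EGFP+ T cells, at least 12.4-fold higher when a 0 is read as up to 3 counts per library (edgeR adjusted p = 1.30e-08). Il2, the growth factor of activated T cells, had 8 and 8 counts in Il10-EGFP− against 1 and 0, a ratio of 14.9 with an exact interval of 2.31 to 625 for counting error only, and did not pass (edgeR adjusted p = 0.0724). Il21 was made in both, at 89 and 70 against 53 and 76 counts (log2 fold change -0.20, edgeR adjusted p = 0.760). Ifng was level, at 8 and 8 against 8 and 7 counts (log2 fold change 0.01, 95% interval -1.26 to 1.29, edgeR adjusted p = 0.996). Ebi3, a subunit of IL-27, had 2 and 0 against 4 and 6 counts (edgeR adjusted p = 0.354). Il4, Il6, Il7, Il9, Il12a, Il12b, Il23a and Il27 had 0 counts in every library, and Il15 had 1 count in all. These cytokines were therefore not detectable, or barely so, in the sorted T cells at this depth.

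Behind the receptors, 16 genes of the Janus kinases, STAT factors and their inhibitors were tested, and 1 was called. Over all genes, 2.35% were called higher and 1.74% lower, so 1 call does not set this list apart. Socs2, an inhibitor of cytokine signalling that STAT5 induces, had 6 and 3 counts in Il10-EGFP− against 28 and 17 in Il10-EGFP+ T cells, so that both Il10-EGFP+ libraries were above both others. It went from 6.26 ± 2.66 to 34.4 ± 14.0 CPM (SD, n = 2 each), with a log2 fold change of 2.40 (SE 0.55, edgeR adjusted p = 0.00374), and was not called without Il10-EGFP+ replicate 1 (edgeR adjusted p = 0.176). limma on the deposited rlog values did not call Socs2 (adjusted p = 0.121), and DESeq2 gave it no adjusted p. Socs2 reached the minimum for testing only with its counts in Il10-EGFP+ T cells. The gene shares 400 sequences of 50 bases with Gm9847, which had 0 counts in every library. Socs3, which restrains gp130 signals, had 56 and 25 against 59 and 71 counts and did not pass (log2 fold change 0.79, edgeR adjusted p = 0.0848). It passed without Il10-EGFP− replicate 1 (log2 fold change 1.42, edgeR adjusted p = 0.00721), while leaving out Il10-EGFP− replicate 2 gave 0.37 (edgeR adjusted p = 0.671). The median log2 fold change of the 16 genes was -0.03, with 8 above 0.

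Among 12 genes known to be induced by cytokines, Pim1 alone was called, where 2.35% of all genes were called higher and 1.74% lower. That call does not set the list apart from other genes. Pim1, a kinase that STAT factors induce, had 220 and 198 counts in Il10-EGFP− against 303 and 316 in Il10-EGFP+ T cells, with replicates close and the populations well apart. The level was 294 ± 6.88 against 468 ± 17.1 CPM (SD, n = 2 each), a log2 fold change of 0.67 (SE 0.15, edgeR adjusted p = 0.00240). The median over the 12 genes was 0.01, with 7 above 0.

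How firmly each receptor chain was called depended on the test. DESeq2's Wald test called 1 of the 10 chains, Il12rb2 (adjusted p = 0.0410), where it called 1.17% of all genes, and it gave Il7r an adjusted p of 0.0614, Il2rg 0.222 and Ifngr1 0.404. limma on the deposited rlog values called 2, Il2rg and Il7r (adjusted p = 0.0211), where it called 2.06% of genes. There Il12rb2 missed narrowly, with rlog values of 5.68 and 5.66 against 6.01 and 6.27 (limma adjusted p = 0.0512), and Ifngr1 had 5.40 and 5.57 against 5.85 and 5.72 (limma adjusted p = 0.116). On the rlog scale, which shrinks low counts, the difference was 0.39 for Il7r and 0.47 for Il12rb2. Il7r was called in 12, Il12rb2 in 11, Ifngr1 in 8 and Il2rg in 7 of the 14 alternatives, and no chain reversed its direction in any of them.

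**Figure D5:**
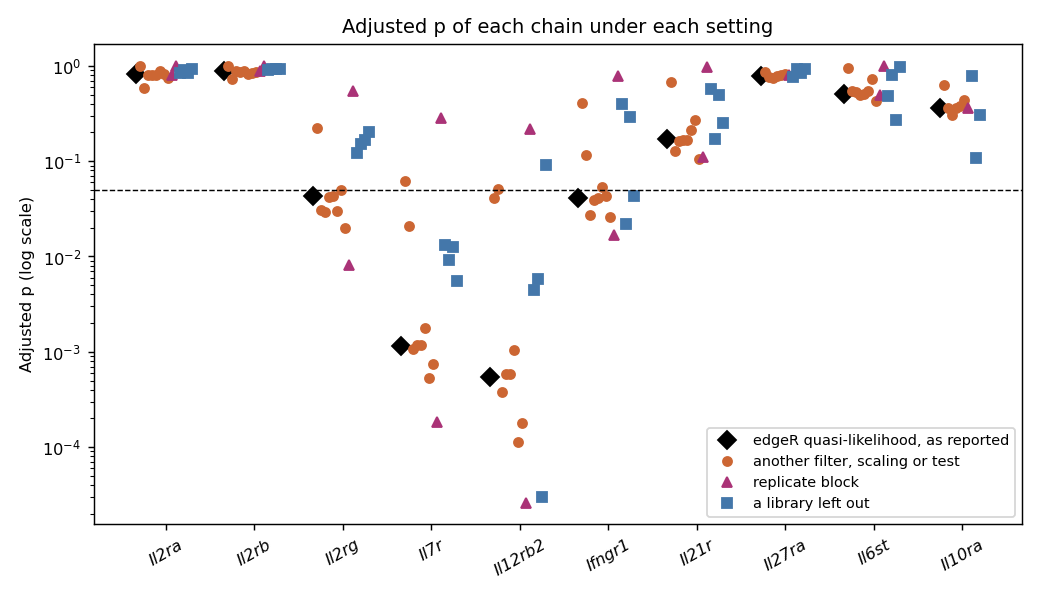
Adjusted p (vertical log axis) of each receptor chain in the test as reported (black diamond), with another filter, scaling or test (orange circles), with a replicate block (purple triangles) and with a library left out (blue squares), and a dashed line at 0.05. Il7r and Il12rb2 lie mostly below the line, Il2rg and Ifngr1 straddle it, and the other 6 chains lie above it in every setting that gave them a value.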

How the data were processed

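Messenger RNA of 4 libraries of sorted CD4+ T cells, 2 Il10-EGFP+ and 2 Il10-EGFP−, had been prepared with a kit for 3′ end sequencing (QuantSeq FWD) and many amplification cycles from little RNA. The deposited counts give reads for each Ensembl gene, which the authors obtained with STAR 2.5.2a and HTSeq 0.6.0 on GRCm38 (per the labels' processing notes and the methods), and the authors also deposited rlog values on a log2 scale, computed in DESeq2. The methods state that molecular identifiers served to assess duplicates and amplification. Whether counts were then collapsed to molecules, the release of the annotation and the strand option are not given in the sources used here. A further pair of libraries that the study set aside was not analysed here. No per-sample column was left unused, and 419 of 47643 gene IDs had no symbol.

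All genes whose counts summed to 10 or more went into edgeR 4.0.16 under R 4.3.3 (glmQLFit and glmQLFTest, legacy fit, TMM factors, population as the only term), with Benjamini-Hochberg adjustment over 9608 genes and a threshold of 0.05. These genes held 99.34% to 99.45% of the counts. The edgeR test stands in for the study's DESeq2, which is an alternative (DESeq2 1.42.0, limma 3.58.1). Intervals are 95%. On counts simulated for this comparison (9608 genes, 200 changed in each of 5 simulations), edgeR recovered 34.7% of genes changed by 1 on the log2 scale (48.4% of those whose mean was 10 counts or more) and 70.6% of those changed by 2 (87.5%), with 3.61% and 4.98% of calls false, and 0 calls with no change. The simulated counts followed edgeR's own model, a negative binomial with its fitted trend of spread and no variation of genes around that trend. These rates hold for that setting and were not measured on the real libraries.

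Replicate libraries differed by more than sampling noise (chi-square per degree of freedom 2.05 in Il10-EGFP− and 1.87 in Il10-EGFP+), so each counted as a sample. With 2 libraries a population, p-values speak for these samples only. In edgeR, the spread behind a gene's p-value and interval was drawn largely from all tested genes, not from its own replicates. A small edgeR p therefore does not show close replicates. Il12rb2 had an SD of 35.1 CPM in Il10-EGFP+ T cells and an edgeR adjusted p of 0.000549. Il7r had an SD of 5.02 CPM there and an edgeR adjusted p of 0.00114. Intervals from counts cover counting error only, as it is not known whether each count is a separate molecule.

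The 10 chains and the lists of partner chains, receptors, cytokines, signalling genes, targets and markers were chosen with earlier results of these data known. Named genes are the 10 chains, listed genes that passed the test, each chain of a listed receptor and each cytokine above 3 counts in a library. Other names were chosen after their values were seen. Coordinates are from GENCODE M21 on GRCm38, and promoters from RefSeq. Alternatives changed the filter, the scaling, the test or the threshold, added a replicate block, or left out each library.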

Additional observations from a re-analysis of the deposited data

How the results depend on the processing

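The count of receptor chains called, 4 with edgeR, was 1 with DESeq2, 2 with limma on the rlog values, 2 at an adjusted p under 0.01, 2 with a fold of at least 2 required (Il7r and Il12rb2), and 2 to 3 with 1 library left out. It was 4 with limma voom, with bias-adjusted deviances, with RLE size factors and with at least 10 counts in every library, which left Il10ra and Il27ra untested. It was 3 without TMM factors, where Ifngr1 was lost (edgeR adjusted p = 0.0541), and 3 without a filter on low counts, where Il2rg was lost (edgeR adjusted p = 0.0502). With a replicate block it was 4 in edgeR and 0 in DESeq2, where 3 chains had an unadjusted p under 0.05. Library deviations of the same replicate number correlated at 0.0145 over 6781 genes, so the numbers were not shown to pair the samples. Over 137 log2 fold changes of the 10 chains under alternatives, 115 kept their direction and their side of the threshold, 18 kept their direction and lost the call, 4 kept their direction with no adjusted p from DESeq2, and 0 reversed. Among the listed pathway genes, edgeR called 3 (Il10, Socs2 and Pim1), and DESeq2 called 2 and gave Socs2 no adjusted p. With the block edgeR called 4, adding Socs3 (edgeR adjusted p = 0.0281), which limma voom also called (adjusted p = 0.0377). DESeq2 with the block did not call Pim1 (adjusted p = 0.152) and gave Il10 and Socs2 no adjusted p. limma on the rlog values did not call Socs2. The causes were not tested. Il10ra without Il10-EGFP+ replicate 1 fell under the filter, and DESeq2 gave Il10ra and Il27ra no adjusted p. Complete receptors numbered 11 in Il10-EGFP+ and 10 in Il10-EGFP− T cells when any count above 0 sufficed. Depth limits Il27ra, Il10ra, Ifngr2 and Il9r, at 10 counts or fewer in each library.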
